A study of Mus musculus with 9 samples.

Results

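Expression of 9 lipid enzymes was followed in mouse hippocampus, chosen from the 57180 genes of the deposited table by symbol, and all 9 were found. Pnpla7, Abhd4 and Far2 prompted the choice because of their difference between the genotypes in these same libraries. Their genotype values are therefore given as a description with no test. Pnpla6, Napepld, Gde1, Far1, Agps and Gnpat were added as relatives or pathway partners, not for their values, and keep the test. RNA-seq was made from whole hippocampus of C57BL6 mice aged 11 days. The cKO group (genotype Slc38a3 cKO, 3 males and 1 female) lacked Slc38a3, the gene of the glutamine transporter SNAT3, selectively in endothelial cells. The WT group (genotype wt) held 1 male and 4 females. The labels do not say which Cre line made the deletion, and they name no drug or diet for either group.

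Values are normalized counts, the read count of a gene divided by a size factor per library, and each group's mean is given ± SD with n = 4 for cKO and n = 5 for WT. The libraries held 32096409 to 34034530 reads in cKO and 30803135 to 33134405 in WT. A fold change is on the scale log2(normalized count + 1), from limma-trend on the 17036 genes whose mean was at least 10, in a model that held both sex and genotype, and a gene passed at a Benjamini-Hochberg adjusted p under 0.05. Slc38a3 itself was at 351 ± 49.4 in cKO and 2821 ± 829.8 in WT (limma adjusted p = 5.54e-05). The highest cKO library, at 405, stayed below the lowest WT library, at 1804. WT replicates 2 and 5, at 2033 and 1804, lay apart from the other WT libraries, the lowest of which was at 3363. The cause was not tested, and an alternative analysis below left out both replicates. Markers of hippocampal regions (Prox1, Wfs1, Zbtb20 and others) were present in every group, with a summed level of 32273 to 38254 in cKO and 37024 to 40410 in WT. Over all genes, 59 passed (0.346%), 21 higher (0.123%) and 38 lower (0.223%) in cKO. In 6.29% of the genes tested all cKO values lay beyond all WT values, in 2.58% above and in 3.72% below. The rule used this contrast for 3 of the 9 enzymes, so nothing is read from those 3 against this background. In whole tissue, fewer cells of a type and less RNA per cell cannot be told apart.

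Membrane phospholipids are constantly stripped of their acyl chains and rebuilt. Pnpla6 (neuropathy target esterase) and Pnpla7 are patatin-like lysophospholipases that take the remaining acyl chain from lysophosphatidylcholine and leave glycerophosphocholine. N-acylethanolamines, a family of lipid messengers that includes the endocannabinoid anandamide, are released from N-acyl phosphatidylethanolamine either directly by the phospholipase D encoded by Napepld or by a detour, in which Abhd4 removes the acyl chains and the phosphodiesterase encoded by Gde1 frees the messenger. Ether lipids, among them the plasmalogens that are abundant in brain and myelin, are begun in peroxisomes by the acyltransferase encoded by Gnpat and by Agps, which swaps the acyl chain for a fatty alcohol. Far1 and Far2 encode the reductases that make fatty alcohols from acyl-CoA.

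The promoters of the 3 prompting genes are shown because their levels are the ones that differ most between the genotypes. The sequences are from RefSeq on GRCm38.p6, 250 bases before to 50 after an annotated start, 5′ to 3′ on the gene's strand, and all 9 genes matched an entry there. Capitals mark matches, on either strand, to any of 7 short motifs: the E-box CACGTG, the GC box GGGCGG, the CCAAT box CCAAT, the TATA box TATAAA, a sterol element TCACNCCAC, an amino acid response element TGATGNAA and a cyclic AMP element TGACGTCA. All 3 genes lie on the plus strand, and Abhd4 has a pair of annotated starts.
Pnpla7, chr2:24975783-24976082: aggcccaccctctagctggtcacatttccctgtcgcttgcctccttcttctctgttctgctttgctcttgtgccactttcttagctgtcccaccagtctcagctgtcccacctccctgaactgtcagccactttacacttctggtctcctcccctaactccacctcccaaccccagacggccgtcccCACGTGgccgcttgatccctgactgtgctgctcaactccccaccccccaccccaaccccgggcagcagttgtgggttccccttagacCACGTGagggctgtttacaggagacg
Far2, chr6:148047166-148047465: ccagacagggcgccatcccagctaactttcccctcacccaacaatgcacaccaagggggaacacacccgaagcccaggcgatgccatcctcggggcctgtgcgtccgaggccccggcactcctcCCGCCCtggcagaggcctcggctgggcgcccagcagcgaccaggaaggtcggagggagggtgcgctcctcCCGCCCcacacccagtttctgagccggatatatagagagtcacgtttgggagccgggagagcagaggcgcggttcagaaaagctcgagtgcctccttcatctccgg
Abhd4, chr14:54253879-54254178: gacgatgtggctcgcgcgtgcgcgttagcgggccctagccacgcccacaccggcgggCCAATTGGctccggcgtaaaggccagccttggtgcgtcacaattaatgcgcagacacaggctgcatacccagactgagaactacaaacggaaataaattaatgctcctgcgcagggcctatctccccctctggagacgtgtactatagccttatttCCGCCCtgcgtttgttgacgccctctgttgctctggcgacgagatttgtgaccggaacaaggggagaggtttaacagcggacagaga
Abhd4, chr14:54259033-54259332: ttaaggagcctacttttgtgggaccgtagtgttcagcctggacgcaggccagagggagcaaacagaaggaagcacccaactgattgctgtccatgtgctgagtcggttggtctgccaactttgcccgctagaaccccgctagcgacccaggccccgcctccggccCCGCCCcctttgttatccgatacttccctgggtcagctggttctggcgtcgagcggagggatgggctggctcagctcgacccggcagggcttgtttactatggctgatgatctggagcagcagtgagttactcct
The Pnpla7 window held 2 E-box matches, beginning 63 bases before the start and at base 25 after it, and none of the 6 other motifs. Of 32544 distinct promoter windows of this length, 7.17% hold an E-box match, and Gnpat was the only other one of the 9 enzymes with such a match. The Far2 window held 2 GC box matches, and each Abhd4 window held 1. GC box matches occur in 35.9% of the windows. The upstream Abhd4 window also held 2 CCAAT matches that overlap as one palindrome, and 37.4% of all windows have a CCAAT match. None of the 7 motifs was shared by the windows of all 3 genes. These matches describe letters only.

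Of the lysophospholipases, Pnpla7, chosen for its difference and not tested, was higher in every cKO library. Pnpla6, added as its relative, overlapped between the groups. Pnpla7 (ENSMUSG00000036833, chromosome 2, 24866044 to 24944069 in GRCm39) stood at 387.8, 370.2, 405 and 403 normalized counts in cKO replicates 1 to 4. In WT replicates 1 to 5 it stood at 271, 279, 301, 298 and 279 normalized counts. Every cKO library lay above every WT library, the closest being cKO replicate 2, the only cKO female, and WT replicate 3. The means were 391 ± 16.2 in cKO and 286 ± 13.2 in WT, a log2 fold change of 0.45 ± 0.0800 (SE). This spread of 4.13% of the mean in cKO and 4.62% in WT is no wider than the 5.48% that counting alone gives at this depth. The log2 fold change was 0.55 within males, against the single WT male, and 0.36 within females, with the single cKO female.

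Pnpla6 (ENSMUSG00000004565, chromosome 8, 3565383 to 3594267), mutation of which causes a form of spastic paraplegia in people, did not pass. Its cKO libraries held 2182, 2087, 2159.5 and 2012 normalized counts, and its WT libraries 2185, 1999, 2062, 1928 and 1943. The groups overlapped across most of their range, and the highest value of all was that of a WT animal, the only WT male. The difference on the log2 scale was 0.02 ± 0.0497 (SE, limma adjusted p = 0.929), with a 95% interval of -0.09 to 0.12. Per kilobase of exon, Pnpla7 was expressed at 0.240 ± 0.0138 of the level of Pnpla6 in cKO and at 0.183 ± 0.0145 in WT. The library ratios ran from 0.229 to 0.259 in cKO and from 0.161 to 0.200 in WT and did not overlap. The choice of Pnpla7 for its difference bears on this ratio too.

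**Figure D1:**
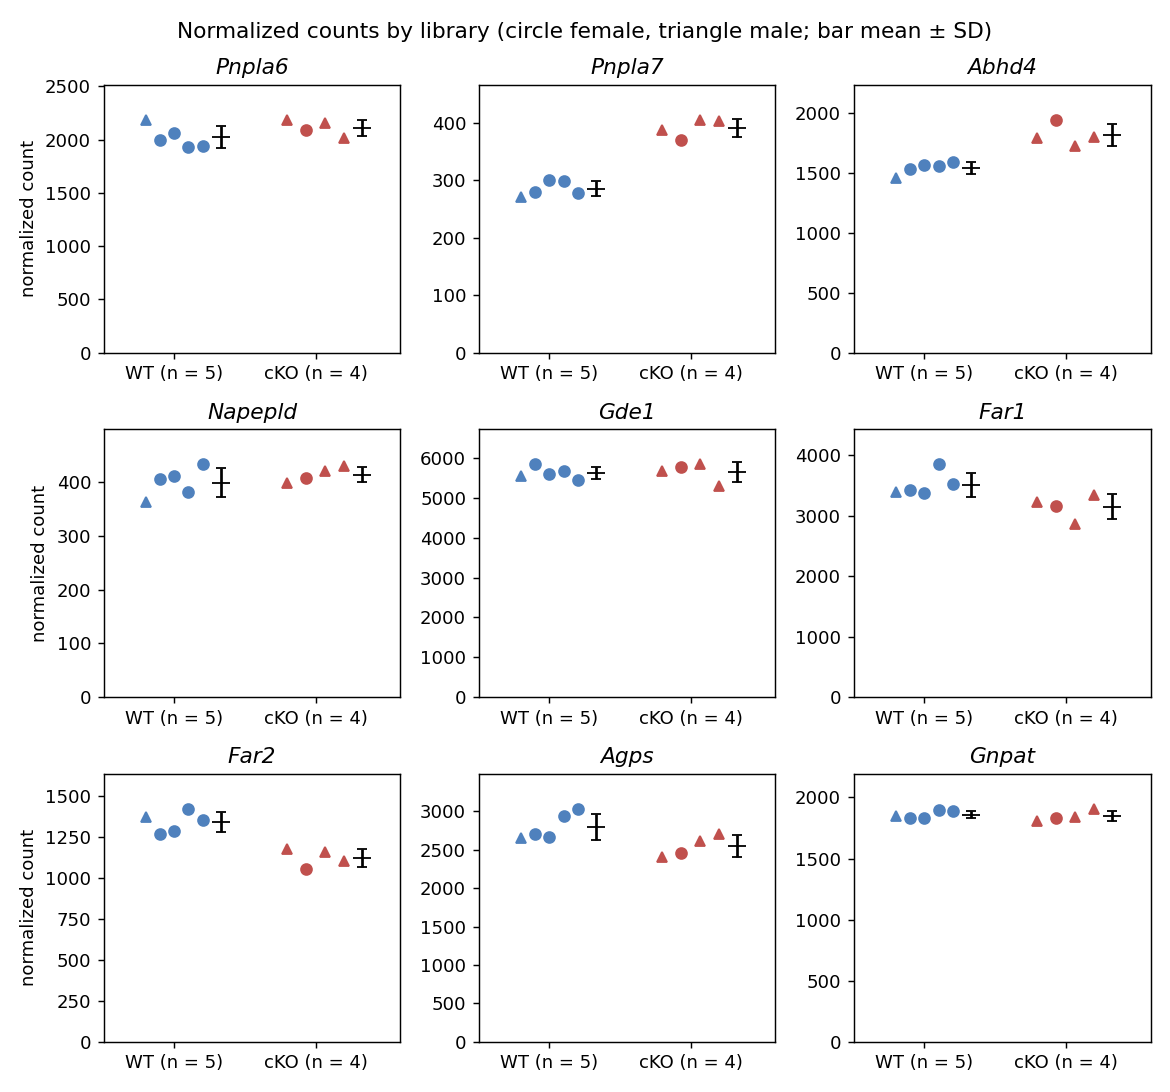
Normalized count (y axis, from 0) of each of the 9 enzymes in the 5 WT libraries (blue) and 4 cKO libraries (red), circles for females, triangles for males, with mean ± SD beside them. Pnpla7 and Abhd4 lie higher in every cKO library than in any WT library, Far2 and Far1 lie lower, and the other 5 overlap.

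Of the enzymes of N-acylethanolamine release, Abhd4, chosen for its difference and not tested, was higher in cKO. Its partners, which were tested, showed no difference that passed. Abhd4 (ENSMUSG00000040997, chromosome 14, 54491644 to 54508094) stood at 1784, 1939, 1723 and 1794 normalized counts in cKO replicates 1 to 4. The WT replicates 1 to 5 stood at 1453, 1533, 1559, 1554 and 1586. The groups did not overlap, and the highest library was the cKO female while the lowest was the WT male. The means were 1810.1 ± 91.5 in cKO and 1537 ± 50.7 in WT, a log2 fold change of 0.30 ± 0.0432 (SE). Within males, against the single WT male, the log2 fold change was 0.28, and within females, with the single cKO female, 0.32. It was 0.24 without the sex term, since the sexes are unevenly split between the groups.

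Gde1 (ENSMUSG00000033917, chromosome 7, 118287767 to 118305001), which acts after Abhd4 on the same route, held 5659, 5783.5, 5835 and 5286 normalized counts in cKO and 5542, 5838, 5603, 5675 and 5442 in WT. The groups overlapped, with the lowest value in cKO and the highest in WT. The estimated log2 difference was 0.02 ± 0.0443 (SE, limma adjusted p = 0.865), with a 95% interval of -0.07 to 0.12. Napepld (ENSMUSG00000044968, chromosome 5, 21867898 to 21906394), the direct route, held 398, 407, 421 and 431 in cKO and 364, 406, 411, 382 and 433 in WT. The cKO values all lay within the WT range. The estimated log2 difference was 0.09 ± 0.0781 (SE, limma adjusted p = 0.686), with a 95% interval of -0.08 to 0.26. This interval is wider than that of Gde1, whose counts are higher. The per-kilobase ratio of Abhd4 to Napepld was 5.28 ± 0.371 in cKO and 4.66 ± 0.204 in WT, and that of Abhd4 to Gde1 was 0.166 ± 0.0105 in cKO and 0.141 ± 0.00627 in WT. The choice of Abhd4 for its difference bears on these ratios too.

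Among the ether lipid enzymes, the values of Far2, chosen for its difference and not tested, all lay lower in cKO than in WT. Far1, Agps and Gnpat were tested and did not pass. Far2 (ENSMUSG00000030303, chromosome 6, 147948756 to 148084256) stood at 1174, 1052, 1157 and 1099 normalized counts in cKO replicates 1 to 4. The WT replicates 1 to 5 stood at 1366, 1267, 1284, 1419 and 1351. The groups did not overlap, and the cKO female was the lowest library. The means were 1121 ± 56.0 in cKO and 1337 ± 62.1 in WT, a log2 fold change of -0.30 ± 0.0558 (SE). The log2 fold change was -0.26 within males, against the single WT male, and -0.34 within females, with the single cKO female. The span of Far2 overlaps that of Ergic2, a gene of vesicle transport, and no source used here gives the strand setting of the counting, so reads from a shared stretch cannot be told apart. Ergic2 was at 1667 ± 64.8 in cKO and 1811 ± 69.5 in WT, with overlapping groups and a log2 fold change of -0.09 ± 0.0498 (SE, limma adjusted p = 0.516).

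Far1 (ENSMUSG00000030759, chromosome 7, 113113040 to 113170718), the reductase regarded as limiting for plasmalogen synthesis, held 3235, 3154, 2866 and 3347 normalized counts in cKO and 3388, 3421, 3374, 3850 and 3525 in WT. The groups did not overlap, by a margin that is small beside the spread within them. It was the 1 of the 6 partners whose groups stood apart, where 6.29% of all genes tested did so and 3.72% did so with cKO lower. The means were 3151 ± 205.7 in cKO and 3511 ± 198 in WT, and the log2 fold change of -0.14 ± 0.0613 (SE) did not pass (limma adjusted p = 0.420). The per-kilobase ratio of Far2 to Far1 ran from 0.362 to 0.445 in cKO and from 0.406 to 0.444 in WT, so it overlapped between the groups.

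Agps (ENSMUSG00000042410, chromosome 2, 75662520 to 75761694) held 2400.4, 2459.9, 2618 and 2706 normalized counts in cKO and 2653, 2708, 2661, 2934 and 3033 in WT. The groups overlapped through cKO replicate 4, and WT replicates 4 and 5 were the highest. Its log2 fold change of -0.13 ± 0.0618 (SE) did not pass (limma adjusted p = 0.460). It was -0.04 within males, against the single WT male, and -0.20 within females, with the single cKO female. Gnpat (ENSMUSG00000031985, chromosome 8, 125589771 to 125616796), which opens the pathway, was the steadiest of the 9, with 1811, 1833, 1843 and 1907 normalized counts in cKO and 1852, 1834, 1832, 1894 and 1885 in WT. Its groups overlapped almost wholly, its log2 fold change came to -0.01 ± 0.0430 (SE, limma adjusted p = 0.947), and the 95% interval ran from -0.10 to 0.08. The span of Gnpat overlaps that of 2810004N23Rik, which was at 678 ± 33.2 in cKO and 684 ± 35.0 in WT. The per-kilobase ratio of Agps to Gnpat was 0.505, 0.511, 0.541 and 0.540 in cKO replicates 1 to 4 and 0.545, 0.562, 0.553, 0.590 and 0.613 in WT replicates 1 to 5. All 4 cKO ratios lay below all 5 WT ratios, by a margin that is small beside the spread within the groups (SD 0.0191 and 0.0280). Neither gene passed, and this ratio, which carries no sex term, was looked at after the values of both genes were known.

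**Figure D2:**
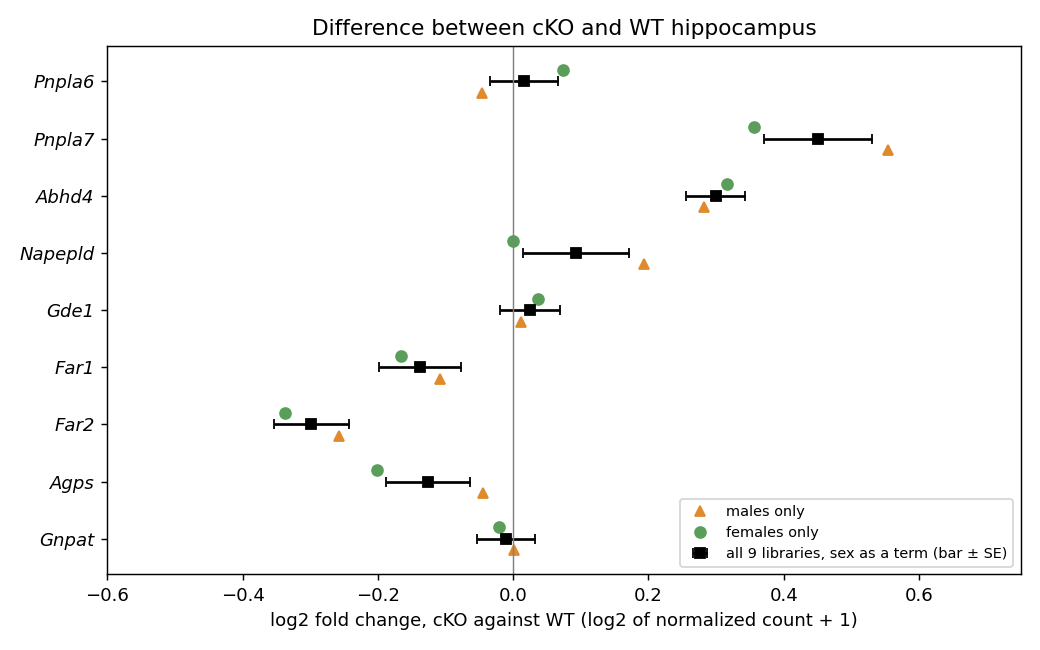
Log2 fold change of cKO against WT (x axis) for each of the 9 enzymes, from all 9 libraries with sex as a term (black squares, bars ± SE) and within males only (triangles) or females only (circles). Pnpla7 and Abhd4 sit above 0 and Far2 below 0 in both sexes, while Pnpla6, Napepld and Gnpat change side between the sexes. The values within a sex rest on 1 WT male or 1 cKO female, and Pnpla7, Abhd4 and Far2 were chosen for this contrast.

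Of the 6 partners, 0 passed with limma-trend, and 1, Far1, had an unadjusted p under 0.05. edgeR on reads recovered from the values likewise gave 0 passing and 0 unadjusted, and DESeq2 gave 0 passing and 1 unadjusted. Over all genes tested, 11.3% had an unadjusted p under 0.05. The median log2 fold change of the 6 was 0.0026, beside -0.0034 over all genes tested. Among the 6, Far1 and Agps kept a negative and Gde1 a positive log2 fold change in all 24 alternative analyses. Those of Pnpla6, Napepld and Gnpat crossed 0 in some. The alternatives share libraries and are not separate checks.

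Compared per kilobase of exon, the 9 enzymes covered a wide range. Gde1 was by far the highest, at 3327 normalized counts per kilobase over the 9 libraries, above 98.3% of the genes tested. Gnpat followed at 517, Abhd4 at 506, Far1 at 416, Agps at 285, Pnpla6 at 213, Far2 at 169.7, Napepld at 103 and Pnpla7 at 44.4. The median gene tested was at 136 on the same scale, so Napepld and Pnpla7 lay in the lower part of the expressed genes, and Pnpla7 was above 29.2% of them. Over the libraries the ranges of Gnpat and Abhd4 overlapped, as did those of Abhd4 and Far1, while the other 6 neighbouring pairs in this order did not overlap. Abhd4 lay at 552 ± 27.9 per kilobase in cKO, above Gnpat at 515 ± 11.5, and at 469 ± 15.4 in WT, below Gnpat at 518 ± 7.99. Abhd4 was chosen for its difference, so nothing is read from this change of order. Exon lengths are those of GENCODE M21 on GRCm38, matched by gene identifier for 98.0% of the genes tested, and the annotation used for counting may differ.

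**Figure D3:**
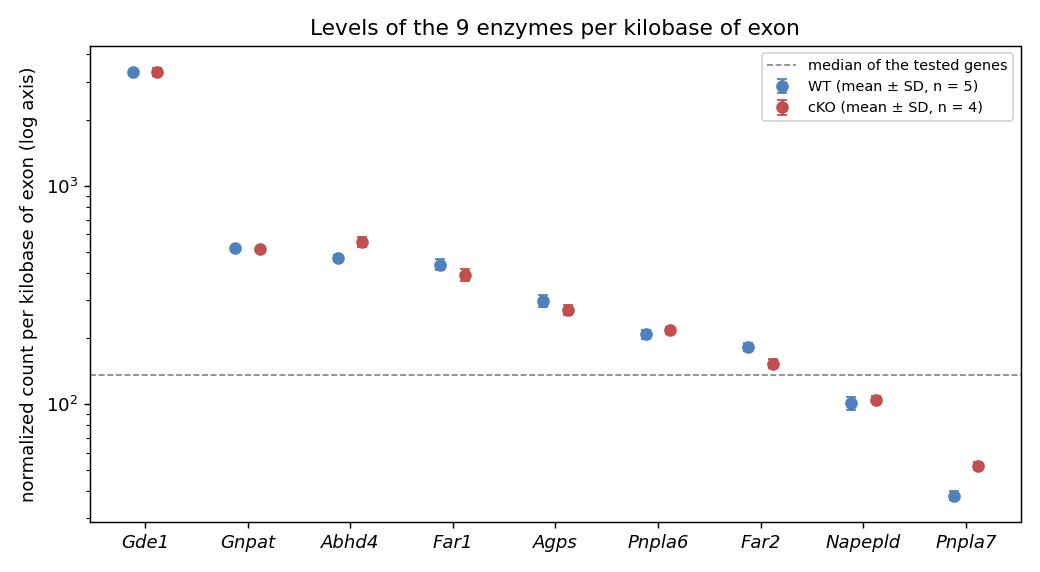
Normalized count per kilobase of exon (y axis, log scale) for the 9 enzymes, WT in blue and cKO in red, mean ± SD, with the median of the tested genes as a dashed line. Gde1, at 3327, lies far above the rest, and Napepld and Pnpla7 lie below the median of 136.

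Differences between the sexes were not used in the choice, but the sexes are unevenly split, so a gene's sex estimate is tied to its genotype estimate. The sex values of Pnpla7, Abhd4 and Far2, which were chosen by genotype, are therefore not free of that choice. None of the 9 enzymes passed for male against female with genotype as a term, where 0.0528% of all genes did. With limma-trend 0 passed and 1 had an unadjusted p under 0.05, as had 6.73% of all genes, and edgeR and DESeq2 gave the same counts. That gene was Abhd4, with a log2 difference of -0.12 ± 0.0432 (SE), lower in males (limma adjusted p = 0.710). The sign of this difference rests on the genotype term: without it the log2 difference of Abhd4 was 0.05, since 3 of the 4 males are cKO. Pnpla6 had a log2 difference of 0.08 ± 0.0497 (SE, limma adjusted p = 0.765) and Far2 one of 0.08 ± 0.0558 (SE, limma adjusted p = 0.798). The 6 others lay between -0.07 and 0.0040. For the interaction of sex and genotype, 0 of the 9 passed and 0 had an unadjusted p under 0.05 with limma-trend, with edgeR and with DESeq2, beside 0.00587% and 7.90% of all genes with limma-trend. The interaction of Pnpla7 was 0.20 ± 0.155 (SE) on the log2 scale, an estimate that rests on 1 cKO female and 1 WT male.

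The genes around these enzymes were taken from 5 lists, and in none did a gene pass with limma-trend or with edgeR. DESeq2 passed 1 gene in each of 2 lists, Gpcpd1 and Plaat3, beside 200 over all genes. For each list's count of unadjusted p under 0.05, the share over all genes tested was 11.3% with limma-trend. Groups stood apart with cKO lower for 2, 1, 1, 3 and 1 genes of the 5 lists, in the order below. They stood apart with cKO higher for 1 gene, in the list of choline and ethanolamine phospholipid synthesis. Over all genes tested, 3.72% stood apart lower and 2.58% higher. Of 27 genes of lysophospholipid turnover, 25 were tested, 0 rose, 0 fell and 2 had an unadjusted p under 0.05, with a median log2 fold change of -0.02. Gpcpd1, whose product cleaves the glycerophosphocholine that lysophospholipases leave behind, came nearest. It was at 4423 ± 385 normalized counts in cKO and 5512 ± 196 in WT without overlap, a log2 fold change of -0.25 ± 0.0522 (SE, limma adjusted p = 0.0683). With DESeq2 its adjusted p was 0.00252, with robust limma 0.0446 and without the sex term 0.00798. It passed in these alternative analyses only, and the sexes are unevenly split where the sex term is left out. Abhd6 encodes a hydrolase of the endocannabinoid 2-arachidonoylglycerol and of lysophospholipids. It was at 1323 ± 59.1 in cKO and 1512 ± 33.5 in WT, also without overlap (log2 fold change -0.15 ± 0.0464, limma adjusted p = 0.243). Pnpla2, the triglyceride lipase of the same family as Pnpla6 and Pnpla7, was at 482 ± 38.5 and 455 ± 9.81 (limma adjusted p = 0.521).

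Of 16 genes of choline and ethanolamine phospholipid synthesis, all 16 were tested, 0 passed and 3 had an unadjusted p under 0.05, with a median log2 fold change of -0.02. Chka, the choline kinase that starts phosphatidylcholine synthesis, was at 1903 ± 144 in cKO and 1644 ± 109 in WT (limma adjusted p = 0.190). Selenoi, the ethanolamine phosphotransferase that also serves plasmalogen synthesis, was at 2649 ± 133 in cKO and 2860.0 ± 111 in WT without overlap (limma adjusted p = 0.328). Pcyt1b, an enzyme of the choline route, was at 3242 ± 53.6 in cKO and 3393 ± 91.3 in WT (limma adjusted p = 0.430).

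Of 20 genes of N-acylethanolamine and endocannabinoid metabolism and sensing, 16 were tested, 0 passed and 3 had an unadjusted p under 0.05, with a median log2 fold change of -0.02. Plaat3, a phospholipase and acyltransferase, was at 338 ± 33.5 in cKO and 267 ± 34.4 in WT, a log2 fold change of 0.45 ± 0.113 (SE, limma adjusted p = 0.161), about that of Pnpla7 but with overlapping groups. With DESeq2 its adjusted p was 0.0385, the only alternative analysis in which it passed. Daglb, which makes 2-arachidonoylglycerol, was at 922 ± 40.5 in cKO and 843 ± 29.4 in WT (limma adjusted p = 0.309), and Abhd6 belongs here too.

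Of 17 genes of ether lipid and platelet-activating factor metabolism, all 17 were tested, 0 passed and 3 had an unadjusted p under 0.05, with a median log2 fold change of -0.01. Peds1, the desaturase that turns ether lipids into plasmalogens, was at 1059 ± 37.1 in cKO and 1178 ± 33.5 in WT without overlap (log2 fold change -0.13 ± 0.0514, limma adjusted p = 0.356). Pla2g7, a platelet-activating factor hydrolase, was at 4036 ± 502 in cKO and 3743 ± 109 in WT (limma adjusted p = 0.286), and Selenoi belongs here too. Of 19 genes of peroxisomal import and transport, all 19 were tested, 0 passed and 2 had an unadjusted p under 0.05, with a median log2 fold change of 0.02. Pex5l is a relative of Pex5 whose part in peroxisomal import was not examined. It was at 4427 ± 168 in cKO and 4944 ± 142 in WT without overlap (limma adjusted p = 0.244). Pex2 was at 760.3 ± 38.0 and 702 ± 15.3 (limma adjusted p = 0.429). The very-long-chain acyl-CoA transporter Abcd2 was at 1312 ± 110.1 and 1481 ± 116 (limma adjusted p = 0.551).

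**Figure D4:**
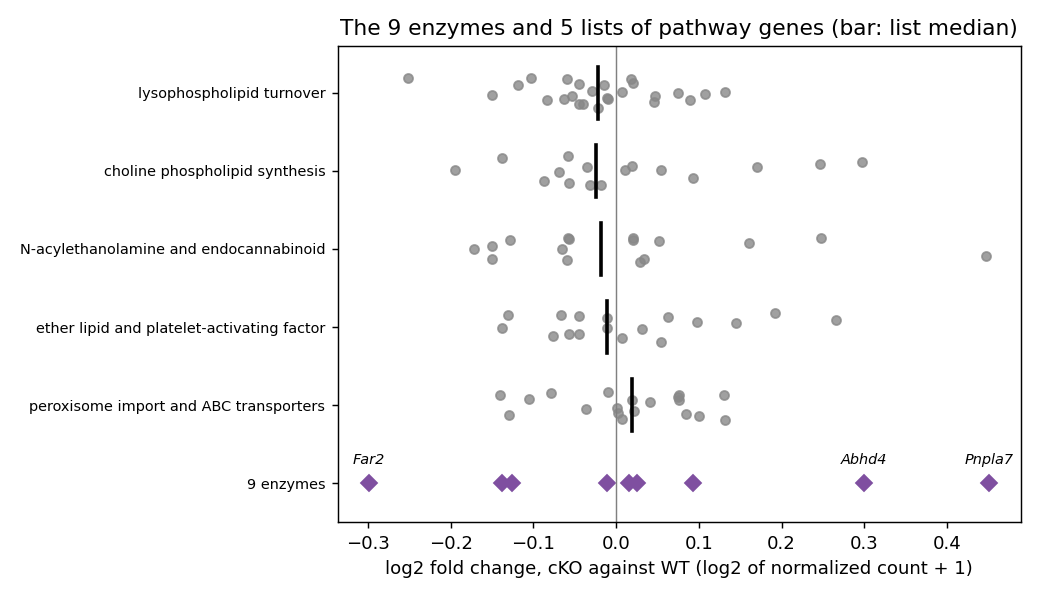
Log2 fold change of cKO against WT (x axis) of every tested gene in 5 pathway lists (grey points, list median as a bar) and of the 9 enzymes (diamonds). The list medians lie between -0.02 and 0.02. Pnpla7 and Far2 lie at the edges, and Abhd4 lies further in than Plaat3 of the N-acylethanolamine list. Pnpla7, Abhd4 and Far2 were chosen for their differences.

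Marker genes of brain cell types were set beside these values, and none of them was at 0 in all libraries. The 12 astrocyte markers summed to 156815 to 164885 normalized counts in cKO and 157160 to 174083 in WT, with 1 of the 12 passing, lower. The 10 oligodendrocyte markers summed to 21921 to 33677 in cKO and 21530.3 to 32203 in WT, so the marker sum of the myelinating cells overlapped between the groups. The sums of 3 lists did not overlap, all lower in cKO, though 0 of the markers in them passed. The 8 precursor markers summed to 20044 to 20518 in cKO and 21460.0 to 22808 in WT. The 8 microglia markers summed to 8005 to 8943 and 9097 to 9819.8, and the 9 neuron markers to 274299 to 291626 and 299706 to 311221. These sums carry no sex term, and abundant markers weigh most in them. The 10 endothelial markers summed to 8448 to 9318 in cKO and 9259 to 10755 in WT, with 1 lower, and the 10 meningeal fibroblast markers to 9222 to 10918 and 6936 to 10743. The 6 choroid plexus markers ran from 554 to 32930.0 in cKO and from 585 to 43594 in WT, a wide spread in both groups. The part of neurons, precursors and microglia in the values of Pnpla7, Abhd4 and Far2 was not tested. With the mean of the meningeal list as a covariate, the log2 fold change was 0.42 for Pnpla7, 0.30 for Abhd4 and -0.28 for Far2, and with that of the astrocyte list it was 0.47, 0.29 and -0.27. The sums of these covariate lists overlapped between the groups, so these values do not speak to the lists that stood apart.

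For each enzyme, the genes with the most similar pattern were sought among 13904 genes with a mean of at least 50, by Pearson's r of the residuals left after sex and genotype over the 9 libraries. The residuals share library and depth, and the highest r was at least 0.97 for every one of the 9 enzymes. Each is the highest of 13904 values from only 9 libraries, so an r this high can come from the search alone. The nearest pair was Sdc2 (0.979) and Knl1 (0.959) for Pnpla7, Nasp (0.981) and Mfge8 (0.969) for Abhd4, and Ptger3 (0.997) and Ipcef1 (0.978) for Far2. It was Ndufa7 (0.998) and Ufd1 (0.987) for Pnpla6, Urb2 (0.982) and Zfp263 (0.977) for Napepld, Dohh (0.972) and Mrpl2 (0.964) for Gde1, and Gm20712 (0.973) and Tardbp (0.965) for Far1. It was Ipo7 (0.994) and Usp46 (0.992) for Agps and Cebpz (0.993) and Bmi1 (0.991) for Gnpat. Among the 9 enzymes themselves, the residuals of Agps and Gnpat had an r of 0.887, the highest of their pairs, and those of Pnpla6 and Gnpat one of -0.895, the lowest. Those of Pnpla7, Abhd4 and Far2, the genes that prompted the group, had an r of -0.39 (Pnpla7 with Abhd4), 0.292 (Pnpla7 with Far2) and -0.06 (Abhd4 with Far2).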

How the data were processed

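Hippocampus of 4 cKO and 5 WT mice was profiled, with total RNA made into directional libraries together, per the labels' protocols. The submitters' processing notes name STAR 2.7.10b, cutadapt 4.4, FastQC 0.12.1, DESeq2 1.41.8 and GRCm39. No source used here gives the read counter, annotation release or strand setting. The deposited signal values are gene counts scaled by the authors with a single size factor for each library and given to 2 decimals. Dividing by each library's step gave whole reads within 0.1 read for 100.0% of values above 0, though in 3 libraries the step lies so near 1 that low values hardly show it.

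Groups and sex came from the labels, and replicate numbers only name samples. The test was limma-trend (limma 3.58.1, R 4.3.3) on log2(normalized count + 1), with terms for genotype and sex, a mean of at least 10 and Benjamini-Hochberg adjustment over 17036 genes. edgeR 4.0.16 and DESeq2 1.42.0 on recovered reads, other pseudocounts, filters and scalings, single sexes, marker covariates and libraries left out were alternatives. Python 3.11.15 with pandas 2.3.3 and matplotlib 3.10.9 did the rest. Members, lists, tests and the naming rule were chosen with earlier results of these data known, and motifs, ratios and the astrocyte covariate after the values were seen. The rule named the 9 enzymes, Slc38a3, the 3 genes of smallest p per pathway list and the 2 most similar genes per enzyme. Ergic2 and 2810004N23Rik were added as overlapping genes. On simulated counts for cKO against WT over 17036 genes, 137 were called, 3 of them false. Of 100 genes changed 1.25-fold, 38% were called, and of 100 changed 1.5-fold, 96%. Every simulated gene had the same dispersion and no sex effect, and only genes with a mean of at least 50 were changed. The rates in the real libraries may therefore differ. Litters are not labelled, so the p-values cover only the spread among these 9 samples, which may share litters.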

Additional observations from a re-analysis of the deposited data

How the results depend on the processing

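Depth was not limiting for most of the 9 enzymes, whose lowest value was 271 normalized counts, but the single cKO female and the single WT male weigh on every estimate with a sex term. No paired analysis was possible because the labels give no replicate numbers shared by the groups. For Far1 (-0.17 to -0.11), Agps (-0.20 to -0.04) and Gde1 (0.0047 to 0.04), the log2 fold changes kept their direction in all 24 alternatives. None of the 6 partners passed in any of them (lowest adjusted p 0.156, for Far1). Direction was also kept for Pnpla7 (0.36 to 0.55), Abhd4 (0.24 to 0.32) and Far2 (-0.34 to -0.25). These genes were chosen for this contrast in these libraries, so nothing is read from their kept direction. The 24 alternatives are not separate checks. The other filters and robust limma left the estimates unchanged. Leaving out cKO replicate 2 gave the same estimates as males only, and leaving out WT replicate 1 the same as females only.

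The count of 59 genes passing became 200 with DESeq2, 216 without the sex term, 15 without WT replicates 2 and 5, 13 with the meningeal covariate, 34 with the astrocyte covariate (added after the data were seen), 3 in males only and 11 in females only, and ran from 10 to 65 with 1 library left out. It was 10 and 28 when cKO replicate 2 or 1 was left out, and 21, 29 and 30 when WT replicate 1, 2 or 5 was. In the lysophospholipid list 1 gene passed with robust limma and with DESeq2 (Gpcpd1) and 2 without the sex term. In the N-acylethanolamine list 1 passed with DESeq2 and 1 without the sex term, and in the peroxisome list 1 without the sex term (Pex5l). Without the sex term 25.9% of the calls were higher, against 35.6%.

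The genotype log2 fold changes that crossed 0 were those of Pnpla6 (-0.0459 in males only), Gnpat (0.00093 in males only and 0.0039 with the meningeal covariate) and Napepld (-0.00054 in females only). With 1 library left out they ran from -0.0459 to 0.0741 for Pnpla6, -0.0217 to 0.00093 for Gnpat and -0.00054 to 0.193 for Napepld. The log2 difference of male against female crossed 0 without the genotype term for Abhd4 (0.0478), Far2 (-0.0852) and Gnpat (-0.0020), without WT replicates 2 and 5 for Pnpla7 (-0.0112), with the meningeal covariate for Gnpat (-0.00012) and with the astrocyte covariate for Pnpla7 (-0.0776), Napepld (0.0301), Far2 (-0.0791) and Gnpat (-0.0019). With 1 library left out it ran from -0.0918 to 0.106 for Pnpla7, -0.163 to 0.0311 for Napepld, -0.0932 to 0.0641 for Agps and -0.0070 to 0.0156 for Gnpat, and none of these differences passed.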
